A study of Homo sapiens with 10 samples.

Results

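The genes CHGA, CHGB, INSM1, SCG2, SCG3, SCG5, SYP, NCAM1 and UCHL1 are markers of neuroendocrine cells, and they were followed here in a squamous and a glandular lung cancer line. All 17 probe sets annotated to a single one of these 9 genes were taken, out of 41091 probe sets that name 1 gene, which cover 19775 genes. None of the 9 genes had a further probe set shared with another gene. Expression was measured on 10 human Affymetrix arrays, each a single RNA sample of HTB-182 or of A549. HTB-182 is labelled squamous cell carcinoma and goes by H520 in the title of the series, and A549 cells are labelled adenocarcinoma. After 4 h in medium with charcoal-stripped serum, each line was exposed for 3 h to estradiol-BSA (1 µM) with tamoxifen (10 µM), estradiol-BSA (1 µM) alone, estradiol (1 µM) with tamoxifen (10 µM), estradiol (1 µM) alone, or ethanol vehicle (0.1%). Estradiol-BSA is estradiol coupled to bovine serum albumin, used for receptors at the cell surface, and tamoxifen was given as an inhibitor. The array titles of the estradiol plus tamoxifen samples name tamoxifen alone, and the fuller source descriptions were followed. Each line is 1 established cell line, no albumin-only or tamoxifen-only sample is labelled, and no separate cultures are stated, so p-values reflect only how far these arrays spread, and that spread may be technical.

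Neuroendocrine cells store peptide hormones and neuropeptides in dense-core granules and release them on demand. Chromogranins and secretogranins are the acidic proteins that fill these granules, synaptophysin lies in the membrane of small vesicles, and INSM1 is a zinc finger transcription factor of neuroendocrine differentiation. In lung pathology chromogranin A, synaptophysin, NCAM1 (also called CD56) and INSM1 are stained to recognise small cell carcinoma, carcinoid and other neuroendocrine tumours. UCHL1, also called PGP9.5, is a neuronal ubiquitin hydrolase that many tumours without neuroendocrine traits also express.

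Values are deposited intensities on a linear scale, and the intensity of 20 serves as a level for comparison, not as a test of detection. Array medians ran from 17.5 to 21.4. The A549 vehicle array stood apart from its line, with 486 probe sets (468 of them lower) differing 2-fold or more from its line's remaining arrays. There were 39 to 77 such probe sets on those arrays and 0 to 18 on the HTB-182 arrays. Of 10 listed squamous markers, 8 could be measured. SOX2, a transcription factor amplified in squamous lung cancer, averaged 4152 ± 229 in HTB-182 and 135 ± 59.6 in A549 (SD, n = 5 arrays each). The squamous keratin genes KRT5 and KRT14 had 22.1 ± 4.21 and 8.43 ± 0.809 in HTB-182, and the desmosomal genes DSG3 and PKP1 had 13.4 ± 1.58 and 16.5 ± 2.39. KRT14, DSG3 and PKP1 lay below 20 on all 5 HTB-182 arrays, in the line labelled squamous. Of the 8, SOX2 and CALML3 were higher in HTB-182 and 6 did not pass, among them TRIM29 at 65.1 ± 6.69 in HTB-182 and 57.0 ± 7.29 in A549. Of 9 measured adenocarcinoma and alveolar markers, 1 was higher in HTB-182, 5 were lower and 3 did not pass. The one higher was the keratin gene KRT19 (log2 1.61), and the lower ones were KRT7, KRT18 (log2 -1.62), CEACAM6 (-1.82), MUC1 (-1.46) and NAPSA (-0.30). The glandular keratin gene KRT7 averaged 18.1 on the HTB-182 arrays and 3411 on the A549 arrays (log2 -6.64), while the lung lineage factor gene NKX2-1 averaged 17.9 on the HTB-182 arrays and 17.0 on the A549 arrays. Summed over 6 measured blood and endothelial markers, the intensity was 79.8 to 89.4 on the HTB-182 arrays and 132 to 219 on the A549 arrays, with 1 of the 6 lower in HTB-182 (CD14) and 0 higher. Over 6 fibroblast markers it was 83.0 to 102 in HTB-182 and 375 to 569 in A549, with 2 lower (COL1A1 and COL3A1) and 0 higher. Of 6 neuronal and glial markers, 2 were higher in HTB-182, 2 lower, and 2 did not pass. TUBB3, for a tubulin, and MAP2, for a microtubule protein, were higher in HTB-182 (log2 1.27 and 1.09), while RBFOX3, for a neuronal splicing factor, and MBP, for a myelin protein, were lower (log2 -3.08 and -0.96). GFAP, for a glial filament, had 13.1 ± 1.98 in HTB-182 and 14.9 ± 4.86 in A549, and ELAVL4, for a neuronal RNA-binding protein, had 11.7 ± 1.49 in HTB-182 and 10.8 ± 0.691 in A549. The part of these differences in the following results was not tested.

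On all 5 arrays of HTB-182, 8 of the 17 probe sets exceeded 20, from 6 genes (CHGB, INSM1, NCAM1, SCG5, SYP and UCHL1), where 49.4% of all probe sets did. On all 5 arrays of A549, 5 did, from 4 genes (CHGB, NCAM1, SYP and UCHL1), where again 49.4% of all probe sets did. In full, 4 probe sets exceeded 20 on all 10 arrays (44.4% of all probe sets did), 4 on every HTB-182 array but not on every A549 array, and 1 on every A549 array but not on every HTB-182 array. Another 7 exceeded it on no array, and the last, INSM1 231558_at, on 1 array. The probe sets on no array were those of CHGA, SCG2 and SCG3 and 4 of the 7 for NCAM1. The values nearest to the level were 18.3 for UCHL1 1555834_at (HTB-182 with estradiol), 18.7 for SCG5 and 18.8 for NCAM1 227394_at (both A549 with estradiol-BSA), and 18.8 and 19.4 for SCG2 (A549 with estradiol alone and with tamoxifen) on the lower side. On the upper side they were 20.7 for SYP (HTB-182 with estradiol) and 20.9 for INSM1 231558_at (HTB-182 with estradiol-BSA), for UCHL1 1555834_at and for NCAM1 227394_at (both A549 with estradiol and tamoxifen).

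**Figure D1:**
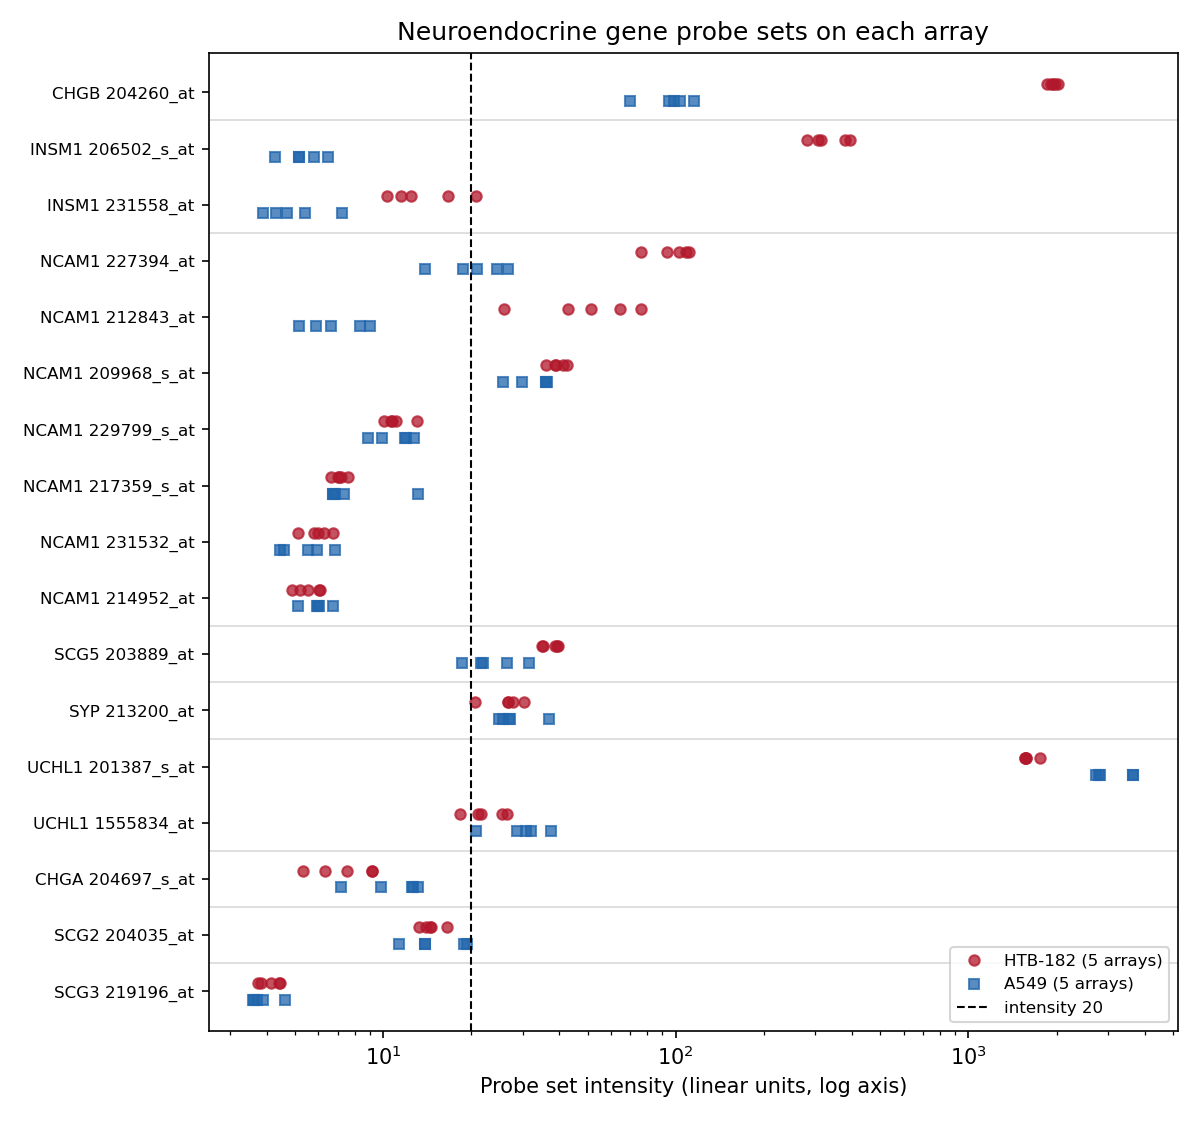
Intensity of each of the 17 probe sets on each array (horizontal log axis), HTB-182 as circles above A549 as squares in each row, with the dashed line at 20. CHGB 204260_at and INSM1 206502_s_at lie far to the right in HTB-182, UCHL1 201387_s_at lies at 1561 or above on all arrays, and CHGA, SCG2 and SCG3 lie left of the line in both lines.

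CHGB, encoding chromogranin B, was the granin with a strong signal. Its probe set 204260_at had intensities of 1971 (estradiol-BSA with tamoxifen), 1853 (estradiol-BSA), 1943 (estradiol with tamoxifen), 1914 (estradiol) and 2015 (vehicle) in HTB-182, against 94.8, 98.3, 103, 116 and 69.6 in A549, in the same order of treatments. Every HTB-182 array lay above every A549 array, and CHGB stayed above 20 in A549. By limma it was 17.6-fold higher in HTB-182 on the log2(intensity + 16) scale (log2 4.14 ± 0.11, SE; adjusted p = 5.5e-11; higher in 5 of 5 treatment pairs). That difference ranked 113 of 41091 probe sets from the highest. Within HTB-182 the coefficient of variation of CHGB was 3.15%.

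The other granin genes did not share this signal. CHGA, encoding chromogranin A, the granule marker most used in pathology, had 9.17, 6.33, 7.52, 9.19 and 5.32 in HTB-182, against 9.87, 7.16, 12.5, 13.2 and 12.6 in A549. All 10 values lay below 20 and the lines overlapped. On the log2 scale CHGA was lower in HTB-182 by limma (-0.20 ± 0.06, SE; adjusted p = 0.0108; lower in 5 of 5 pairs), a difference between signals that both lie under the level. SCG2, encoding secretogranin II, the precursor of secretoneurin, ranged from 13.2 to 16.6 in HTB-182 and from 11.4 to 19.4 in A549 (log2 -0.04, adjusted p = 0.736). SCG3, encoding secretogranin III, a granule protein that binds chromogranin A, ranged from 3.73 to 4.45 in HTB-182 and from 3.59 to 4.62 in A549 (log2 0.02, adjusted p = 0.635). Both genes thus overlapped between the lines. SCG5 encodes the 7B2 protein, a chaperone of the prohormone convertase PC2. It had 39.3, 38.7, 34.9, 35.2 and 39.6 in HTB-182, against 21.6, 18.7, 26.6, 22.0 and 31.6 in A549. The lines did not overlap, and the A549 vehicle array came closest to HTB-182. On the log2 scale given for CHGB, SCG5 was 1.34-fold higher in HTB-182 (log2 0.42 ± 0.10, SE; adjusted p = 0.00367; 5 of 5 pairs). The ratio of its mean intensities was 1.56.

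The bases before the transcription start are shown for a granin gene near the bottom of the scale in both lines, CHGA, and, for contrast, for UCHL1, which was bright in both. RefSeq's promoter table (GRCh38.p14) held 5 of the 9 genes (CHGA, SCG3, SCG5, SYP and UCHL1). Each sequence is the 250 bases that end just before the start, on the gene's own strand, which is the plus strand for both. Capitals mark the cyclic AMP response element TGACGTCA in CHGA and the letters TATAAA in UCHL1, which are read on the opposite strand. CHGA lies at chr14:92922900-92923149 and UCHL1 at chr4:41256678-41256927.
CHGA: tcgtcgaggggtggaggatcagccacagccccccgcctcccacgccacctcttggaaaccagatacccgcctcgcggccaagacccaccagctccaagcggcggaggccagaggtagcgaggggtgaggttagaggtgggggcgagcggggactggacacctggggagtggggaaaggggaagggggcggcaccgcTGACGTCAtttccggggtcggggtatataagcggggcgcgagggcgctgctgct
UCHL1: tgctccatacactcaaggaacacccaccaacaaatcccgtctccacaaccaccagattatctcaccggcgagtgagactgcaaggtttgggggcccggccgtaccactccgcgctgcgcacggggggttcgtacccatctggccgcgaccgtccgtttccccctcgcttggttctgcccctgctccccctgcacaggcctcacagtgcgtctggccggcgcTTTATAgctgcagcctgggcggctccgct
The element TGACGTCA lies 54 to 47 bases before the CHGA start, and 1.77% of 27305 gene promoters of this length hold it on either strand. The letters TATAAA, found in 11.1% of promoters, lie 29 to 24 bases before the UCHL1 start on the opposite strand. Only the exact letters TATAAA were searched. CHGA holds the similar letters TATATAAG, left unmarked, on its own strand between TGACGTCA and its start. TGACGTCA contains the shorter TGACG, which is also in the SCG5 window and in 21.7% of promoters. The parts of the binding element of REST, the repressor of neuronal genes, were searched on both strands as TTCAGCACC (0.300% of promoters) and GGACAGNGC (1.88%), and none of the 5 windows held either. A match or its lack describes these letters in this window only.

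INSM1 parted the lines at its main probe set. At 206502_s_at it had 395, 378, 313, 281 and 307 in HTB-182, against 5.80, 4.28, 5.17, 5.17 and 6.46 in A549. All HTB-182 arrays were above 20 and all A549 arrays below it, a pattern shared with NCAM1 212843_at and with 1.75% of all probe sets. The HTB-182 level was at least 16.6-fold that of A549 when A549 is set to 20, and the fitted difference was 4.03 ± 0.11 on the log2 scale (SE; adjusted p = 9.2e-11; 5 of 5 pairs). The difference ranked 124 of 41091 from the highest. Its size depended on the pseudocount, at 5.71 with 1 and 2.51 with 64 in place of 16. The other probe set, 231558_at, was dim, with 11.5, 20.9, 10.3, 16.7 and 12.4 in HTB-182, against 4.68, 5.39, 4.30, 3.88 and 7.25 in A549. It pointed the same way without overlap (log2 0.52 ± 0.07, SE; adjusted p = 6.5e-05).

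NCAM1 encodes the neural cell adhesion molecule, and its 7 probe sets disagreed. At 227394_at the intensities were 108, 111, 102, 76.0 and 93.5 in HTB-182, against 24.5, 18.8, 20.9, 13.9 and 26.7 in A549. The lines did not overlap. With the pseudocount added, NCAM1 at this probe set was 3.09-fold higher in HTB-182 (log2 1.63 ± 0.10, SE; adjusted p = 1.3e-07). The ratio of the mean intensities themselves was 4.68. At 212843_at they were 25.8, 76.2, 51.5, 64.7 and 42.8 in HTB-182, against 5.15, 5.91, 6.62, 9.04 and 8.32 in A549, where no array reached 20. HTB-182 was at least 2.45-fold higher against a level of 20 (fitted log2 1.52 ± 0.13, SE; adjusted p = 1.9e-06). With pseudocounts of 1 and 64 the log2 differences were 2.20 and 0.93 at 227394_at and 2.67 and 0.69 at 212843_at. The probe set 209968_s_at, above 20 on all 10 arrays, ranged from 36.1 to 42.4 in HTB-182 and from 25.7 to 36.4 in A549, with overlap (log2 0.19, adjusted p = 0.135). The other 4 NCAM1 probe sets lay between 4.46 and 13.2 on all arrays, with log2 differences from -0.06 to 0.03 and adjusted p of 0.419 or more.

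SYP, encoding synaptophysin, had 30.2, 27.7, 26.8, 20.7 and 26.7 in HTB-182, against 25.8, 24.9, 27.1, 26.9 and 36.9 in A549. The lines overlapped, and the A549 vehicle array was the highest of all (log2 -0.06 ± 0.10, SE; 95% interval -0.27 to 0.15; adjusted p = 0.671). UCHL1 was bright in both lines. At 201387_s_at it had 1579, 1562, 1561, 1577 and 1762 in HTB-182, against 2818, 2791, 2738, 3653 and 3663 in A549. Every HTB-182 array lay below every A549 array. UCHL1 was lower in HTB-182 by limma, with A549 1.92-fold higher with the pseudocount added (log2 -0.94 ± 0.07, SE; adjusted p = 6.5e-07; lower in 5 of 5 pairs). The ratio of mean intensities, A549 over HTB-182, was 1.95. The dim probe set 1555834_at had 18.3 to 26.6 in HTB-182 and 20.9 to 37.5 in A549, with overlap (log2 -0.24 ± 0.09, SE; adjusted p = 0.0497), and leaving out any single array ended this call (adjusted p up to 0.161), except either array with estradiol and tamoxifen. In RNA of whole cultures, fewer expressing cells and less RNA per cell cannot be told apart.

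Of the 17 probe sets, 6 were higher in HTB-182 (CHGB, both of INSM1, 2 of NCAM1 and SCG5), where limma called 21.1% of all probe sets higher. Lower in HTB-182 were 3 (both of UCHL1 and CHGA), where 21.5% of all were called lower. Without overlap between the lines, 6 lay above in HTB-182 against 18.1% of all probe sets, and 1 lay below against 19% of all. The median log2 difference was 0.02 over the 17 and -0.01 over all probe sets tested. The 9 genes did not move as a block, with differences between -0.94 and 4.14. The median of 0.02 over the 17 was the value of SCG3, which was dim in both lines. The 7 probe sets that exceeded the level for comparison on no array, most of them for NCAM1, differed by -0.20 to 0.03. The median therefore does not describe the brighter members.

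**Figure D2:**
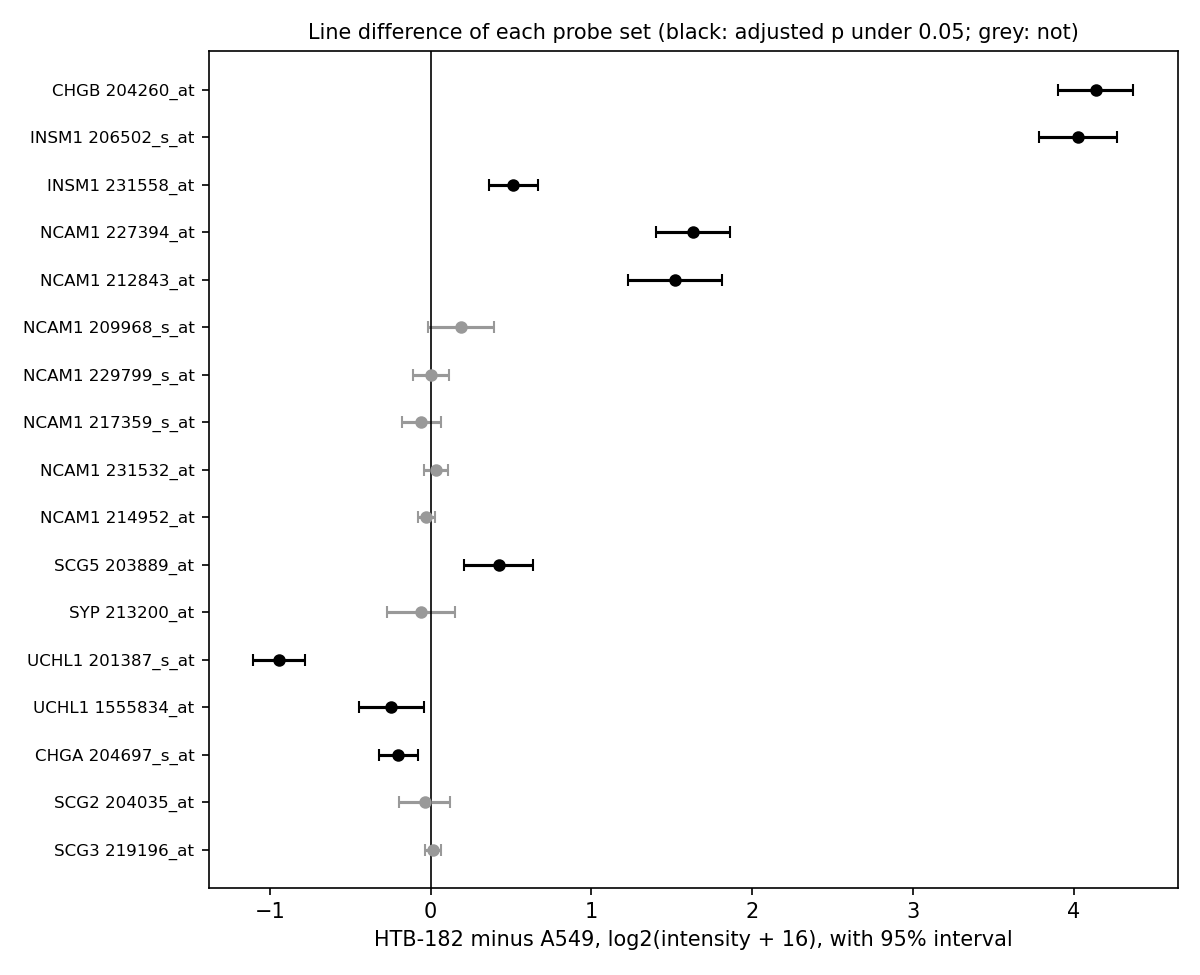
HTB-182 minus A549 for each probe set on the log2(intensity + 16) scale (horizontal axis), with 95% intervals from limma over 5 treatment pairs, black where adjusted p is under 0.05. CHGB (4.14) and INSM1 206502_s_at (4.03) stand far to the right, followed by NCAM1 227394_at (1.63) and 212843_at (1.52), and UCHL1 201387_s_at (-0.94) stands to the left.

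The treatments were compared to ask whether 3 h of estrogen, at the membrane or throughout the cell, moved these genes. By limma 0 of the 17 passed in any treatment comparison, as did 0% of all probe sets. For estradiol against vehicle (2 pairs), the fitted log2 differences ran from -0.38 to 0.27, with a smallest adjusted p of 0.766. An unadjusted p under 0.05 was met by 1 of 17 members and by 6.1% of all probe sets. For estradiol-BSA against vehicle they ran from -0.28 to 0.25 (smallest adjusted p 0.714; 1 of 17 against 6.42% unadjusted). For tamoxifen added to either estrogen form (4 pairs) they ran from -0.40 to 0.22 (smallest adjusted p 0.9999; 2 of 17 against 1.95% unadjusted). A term for a line difference that changes with tamoxifen ran from -0.40 to 0.21 (smallest adjusted p 0.994; 0 of 17 against 2.2% unadjusted). This term set the tamoxifen arrays of each line against all its arrays without tamoxifen, vehicle included. It is therefore not confined to the 4 pairs. The comparisons share arrays and are not independent.

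Estradiol-BSA and free estradiol were both labelled 1 µM and given for 3 h. Whether the figure for estradiol-BSA counts the conjugate or its estradiol is not labelled, so the forms may differ in dose as well as in the coupled albumin. Over the 9 probe sets above 20 on all arrays of a line, estradiol-BSA minus estradiol ran from -0.20 to 0.34 on the log2 scale, and the 95% intervals together reached from -0.50 to 0.70 (smallest adjusted p over all 17 members 0.999; 1 of 17 unadjusted against 3.55%). A missed threshold is no evidence that both forms act alike. CHGB was at -0.13 (interval -0.50 to 0.25, adjusted p = 0.999), with pairs of -0.05 in HTB-182 and -0.20 in A549. INSM1 206502_s_at was at 0.17 (interval -0.21 to 0.56, adjusted p = 0.999), and only its HTB-182 pair, at 0.41, was measured above 20. UCHL1 201387_s_at was at -0.20 (interval -0.45 to 0.05, adjusted p = 0.999), with pairs of -0.01 in HTB-182 and -0.39 in A549.

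Within a line each treatment is a single array, so the next differences have no test. In HTB-182 the one probe set at least 1.5-fold apart was NCAM1 212843_at, at 0.65 for estradiol-BSA minus vehicle (0.348% of all probe sets were that far apart) and at -1.14 for estradiol-BSA with tamoxifen minus estradiol-BSA alone (0.737% of all). No member was that far apart in HTB-182 for estradiol minus vehicle (0.29% of all), estradiol-BSA minus estradiol (0.234%) or tamoxifen added to estradiol (0.204%). The other NCAM1 probe sets above 20 were at -0.03 (227394_at) and -0.07 (209968_s_at) in that tamoxifen pair. For tamoxifen added to free estradiol in HTB-182, 212843_at was at -0.26, and its fitted tamoxifen effect was -0.40 ± 0.15 (SE; 95% interval -0.73 to -0.07; adjusted p = 0.9999). The other NCAM1 probe sets above 20 went the other way in that pair, at 0.36 (227394_at) and 0.09 (209968_s_at). Their fitted tamoxifen effects were 0.22 and 0.04. In A549 the one probe set past 1.5-fold was CHGB, at 0.62 for estradiol minus vehicle (5.4% of all probe sets), where HTB-182 had -0.07. The A549 vehicle array, from which this difference is taken, is the one that stood apart, and CHGB was lowest on it. No member was past 1.5-fold in A549 for estradiol-BSA minus vehicle (10% of all), estradiol-BSA minus estradiol (4.13%), tamoxifen added to estradiol (2.67%) or tamoxifen added to estradiol-BSA (0.411%). UCHL1 201387_s_at in A549 was at -0.41 for tamoxifen added to estradiol and at 0.01 for tamoxifen added to estradiol-BSA, and in HTB-182 at -0.01 and 0.01.

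**Figure D3:**
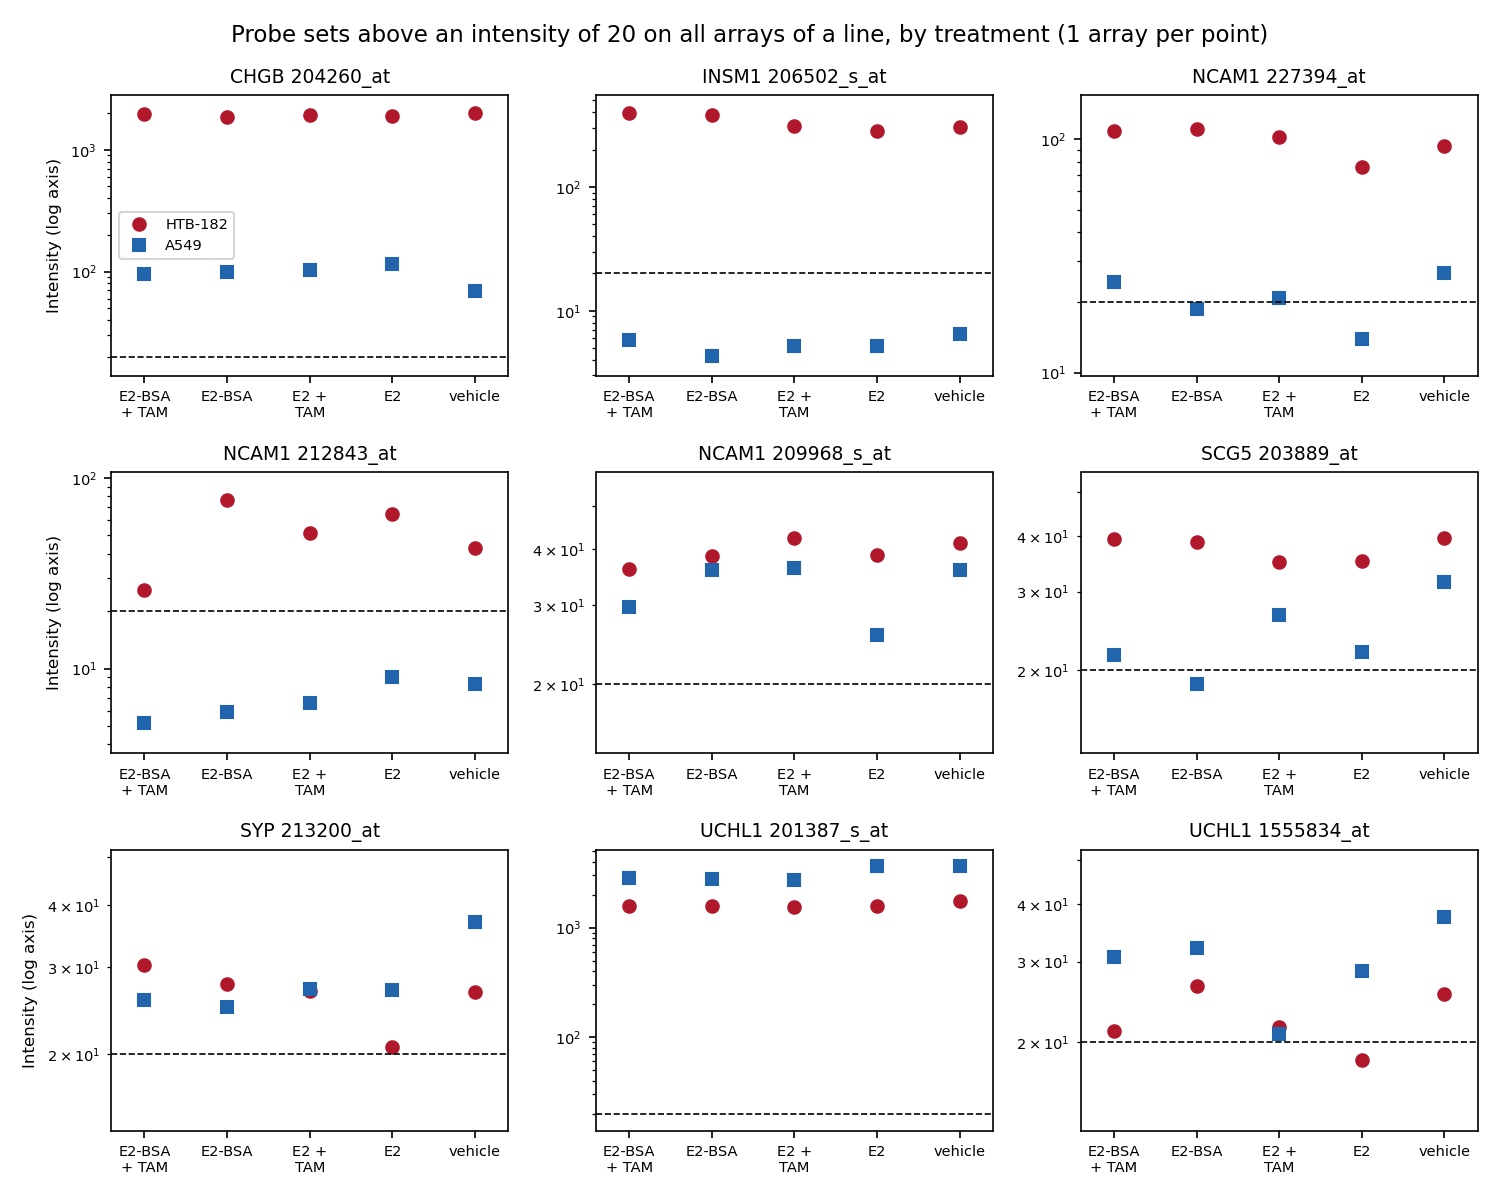
Intensity (vertical log axis) of the 9 probe sets above 20 on all arrays of a line, by treatment, with 1 array per point, HTB-182 as circles, A549 as squares and a dashed line at 20. NCAM1 212843_at in HTB-182 varies between 25.8 and 76.2, while CHGB in HTB-182 stays between 1853 and 2015.

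The member with the highest mean log2 value in HTB-182 and the largest line difference was in both cases CHGB. The 5 genes with the smallest root mean square difference from it on the log2 scale over the 10 arrays, by their brightest probe sets, were PDP1 (0.342), TSPAN5 (0.439), HAS3 (0.445), FZD1 (0.456) and MIS18A (0.496). PDP1, a pyruvate dehydrogenase phosphatase gene, had a mean intensity of 1720 in HTB-182 and 109 in A549. Intensities of different probe sets are not a measure of relative abundance, so this describes likeness of array values only.

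Related genes were examined by their brightest probe sets, where limma called 22.5% of 19775 genes higher and 24.6% lower in HTB-182 and the median log2 difference of all genes was -0.02. Of 11 measured neuroendocrine transcription factor genes, 7 were higher in HTB-182 and 0 lower, with a median of 0.92. POU3F2, a neuronal POU factor also called BRN2, ranged from 729 to 926 in HTB-182 and from 3.97 to 9.87 in A549 (log2 5.26, adjusted p = 1.3e-11). PROX1, a homeobox factor, had 353 ± 39.7 and 9.61 ± 3.73 (log2 3.86, adjusted p = 1.4e-10). HES6, a repressor of HES1 activity, was at log2 1.99, POU4F1, a factor of sensory neurons, at 1.44, ISL1, a LIM homeobox factor, at 1.16, FOXA2, a forkhead factor of gut and lung epithelium, at 0.92, and SOX11, a factor of neuronal progenitors, at 0.81. NKX2-2 (4.73 ± 0.429 and 4.64 ± 0.312) and INSM2 (6.20 ± 1.31 and 6.43 ± 0.464), a relative of INSM1, were dim in both lines. Most of this list therefore pointed the way of INSM1 and CHGB, while CHGA, SCG2 and SCG3 were dim.

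Among 10 measured genes of granule formation and peptide processing, 4 were higher and 3 lower in HTB-182 (median 0.04). CADPS, which primes dense-core granules for release, had 256 ± 16.4 in HTB-182 and 9.60 ± 3.25 in A549 (log2 3.42, adjusted p = 3.8e-10). CPE, the carboxypeptidase that trims peptide precursors, had 262 ± 20.6 and 14.8 ± 4.77 (log2 3.18, adjusted p = 7.2e-10). CADPS2 was at log2 1.83 and the amidating enzyme gene PAM at 0.85, while PCSK1N, for an inhibitor of a prohormone convertase, was at -0.39. The lower SCGN and IGSF1 were below 20 on all arrays. VGF, a further granin relative, had 25.1 ± 2.85 and 28.4 ± 5.57 (adjusted p = 0.422).

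Of 12 neuropeptide and hormone genes, 3 were higher and 1 lower in HTB-182 (median -0.02). GAL, encoding galanin, had 804 ± 80.7 in HTB-182 and 30.1 ± 9.50 in A549 (log2 4.17, adjusted p = 3.0e-10). NTS, encoding neurotensin, ran the other way, with 5.52 to 7.46 in HTB-182 and 2661 to 3993 in A549 (log2 -7.33, adjusted p = 1.3e-12). CALCB and CALCA, for calcitonin family peptides, were higher in HTB-182 at low signal (log2 0.36 and 0.28), and GRP, the bombesin-like peptide of small cell carcinoma, had 6.81 ± 0.240 and 6.99 ± 0.799. GAL in HTB-182 and NTS in A549 were the only means above 100 in this list.

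Synaptic vesicle and exocytosis genes were split, with 5 higher, 5 lower and 5 not passing of 15 measured (median -0.09). The vesicle protein genes SV2A (log2 3.23) and SYT1 (2.32) were higher in HTB-182, and the vesicle GTPase genes RAB3B and RAB3A were at 0.52 and 0.21. RAB3A lost its call in 9 of 17 alternatives (adjusted p up to 0.141). SNAP25, for a membrane fusion protein, had 10.1 ± 1.28 in HTB-182 and 1257 ± 604 in A549 (log2 -5.33, adjusted p = 8.5e-08), where the vehicle array was lowest at 221. SYT13 (-3.36), CPLX2 (-2.19), SYNGR1 (-1.10) and STX1A (-0.60) were also lower in HTB-182. The neural adhesion list was split likewise, 3 higher and 3 lower of 9 (median 0.01). Not all of its genes encode adhesion molecules, among the lower ones DLL3 and ST8SIA4. CHL1, a relative of L1CAM, had 1624 ± 107 in HTB-182 and 6.41 ± 1.10 in A549 (log2 6.19, adjusted p = 1.6e-12), and NRCAM (0.28) and CDH2 (0.26) were also higher. CNTN1 (-1.76), a contactin gene, and DLL3 (-0.85), an inhibitory Notch ligand gene, were lower. ST8SIA4, for an enzyme that adds polysialic acid to NCAM1, had 3.43 ± 0.495 in HTB-182 and 245 ± 147 in A549 (log2 -3.39), with the A549 vehicle array lowest at 25.2.

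REST, the repressor that silences neuronal genes elsewhere in the body, had 325 ± 22.3 in HTB-182 and 302 ± 72.4 in A549 (log2 0.13 ± 0.12, SE; adjusted p = 0.452). Of REST and 9 measured genes listed with it, not all of them its partners, 2 were higher in HTB-182. These were the demethylase gene KDM1A (log2 0.93) and the deacetylase gene HDAC2 (0.99). Lower were 2, SIN3A (-0.39) and SRRM3 (-0.41), and the list median was 0.03. The relatives of UCHL1, UCHL3 and UCHL5, were both higher in HTB-182 (log2 1.28 and 1.51), opposite to UCHL1. UCHL5 had 900 ± 51.5 in HTB-182 and 349 ± 150 in A549, where the lowest array had 81.5. With single arrays left out, its log2 difference ran from 1.07 to 1.66. Among 7 Notch and non-neuroendocrine regulators 0 were higher and 4 lower in HTB-182 (median -0.31), namely WWTR1, encoding the TAZ coactivator (-2.26), NOTCH2 (-0.70), the coactivator gene YAP1 (-0.33) and the Notch target HEY1 (-0.31). The HEY1 call was lost in 10 of 17 alternatives (adjusted p up to 0.187), including those without the estradiol, estradiol with tamoxifen, estradiol-BSA or vehicle array of either line. The YAP1 call was lost in 7 of 17 (adjusted p up to 0.0812), all of them leaving out 1 array. The members of these lists were chosen with earlier results of these data known, so the counts describe the lists only.

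**Figure D4:**
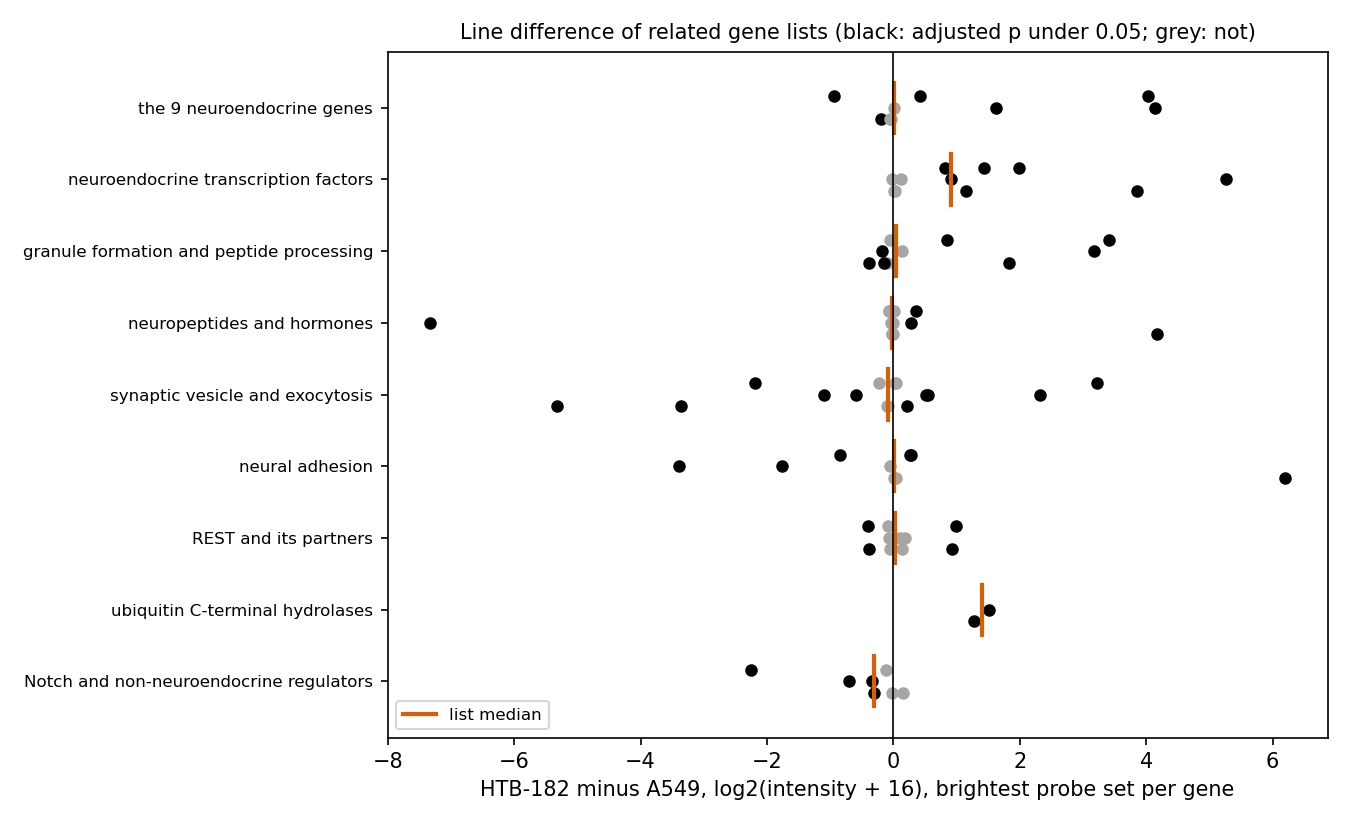
HTB-182 minus A549 on the log2(intensity + 16) scale (horizontal axis) for the brightest probe set of each gene in 9 lists, black where adjusted p is under 0.05, with each list's median as a vertical bar. The transcription factor list has its median at 0.92, and the peptide, vesicle and adhesion lists reach far to both sides.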

How the data were processed

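Expression was measured on 10 Affymetrix arrays, 1 for each of 2 cell lines and 5 treatments. The authors deposited 1 table of intensities on a linear scale for 54675 probe sets, made with MAS5 per the submitters' processing notes, with version and scaling target not given in the sources used here. Array minima ran from 2.27 to 2.59, and whether MAS5 gave these values was not checked, so an intensity of 20 and the pseudocount have a meaning on this table's scale only. Probe sets were named from the platform annotation, leaving out 62 manufacturer's controls, 1801 probe sets with several genes and 11721 with none. Gene numbers of 41037 of 41091 matched RefSeq, with 0 changes of symbol. No filter on low values was applied, so all 17 member probe sets were tested. Values were taken as log2(intensity + 16), which understates the change of dim probe sets. limma 3.58.1 in R 4.3.3 fitted line and treatment (4 residual degrees of freedom; 3 with a line by tamoxifen term) with a mean-variance trend, and p-values were adjusted over all 41091 by Benjamini-Hochberg, at 0.05. The fit of the line difference was tested on simulated data, with far fewer changed probe sets than were called here. The treatment comparisons were not simulated. Array number, not read depth, limits the precision. The members and lists were chosen with earlier results of these data known. Genes of the related lists were named by a rule: up to 6 of largest line difference, and those averaging over 20 in HTB-182 that passed. NKX2-2, INSM2, VGF and GRP, and the genes named from the marker lists, were added after their values were seen. IGSF1 also lies outside the rule. Alternatives were other pseudocounts, a filter, normalization, brightest probe sets, array weights and leaving out each array. Some listed genes had no such probe set and were not analysed here.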

Additional observations from a re-analysis of the deposited data

Results flagged for a closer look

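Each member probe set was examined for an array far from the other 4 of its line, in 34 sets of 5 arrays, of which chance gives about 1 in 20. In A549 the vehicle array was far above the others for NCAM1 217359_s_at (13.2 against 6.73 to 7.33), with a gap of 0.896 of the whole range, and for SYP (36.9 against 24.9 to 27.1), with a gap of 0.796. In HTB-182 the vehicle array was far above the others for UCHL1 201387_s_at (1762 against 1561 to 1579), with a gap of 0.904 of the range. The A549 vehicle array also stood apart over all probe sets, where 468 of the 486 differing 2-fold or more were lower on it. The NCAM1 and SYP values were higher on it, and its part in them was not tested.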

How the results depend on the processing

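The line differences of CHGB, both INSM1 probe sets, NCAM1 212843_at and 227394_at, SCG5, CHGA and UCHL1 201387_s_at kept their direction and an adjusted p under 0.05 in every alternative that tested them. The cause of the following changes was not tested. For UCHL1 1555834_at the adjusted p ran from 0.0265 to 0.161 and was above 0.05 in 12 of 16 alternatives. NCAM1 209968_s_at passed after quantile normalization (adjusted p = 0.0465) and NCAM1 231532_at without the A549 vehicle array (0.0476). Signs that turned belonged to differences near 0: NCAM1 214952_at after median centring (0.0056) and, with single arrays left out, SYP (-0.11 to 0.0020), NCAM1 217359_s_at (-0.0857 to 0.0187), NCAM1 229799_s_at (-0.0367 to 0.0300), SCG2 (-0.0853 to 0.0083) and, for estradiol-BSA minus estradiol, CHGB (-0.29 to 0.0389). The number of members called stayed at 0 for each treatment comparison, except that without the HTB-182 vehicle array, when vehicle is the A549 array alone, 1 passed (0 to 1 over the arrays left out) for estradiol and for estradiol-BSA against vehicle. It was NCAM1 217359_s_at (log2 -0.35, adjusted p = 0.00487, and -0.34, adjusted p = 0.0052), which is below 20 on all arrays. With a level of 50 or 100 in place of 20, 4 and 3 probe sets lay above it in HTB-182 and 2 and 1 in A549, and with 10, 8 did in A549. Of the listed genes, the call was lost in 10 of 17 alternatives for HEY1, 9 for RAB3A, 7 for YAP1, 6 for SIN3A, 4 each for CDH2, SRRM3 and NAPSA and 2 for PCSK1N, and in 7 of 16 for SCGN and 3 each for IGSF1 and CALCA. The lines were compared within treatments throughout, and no further block by replicate number was fitted, since the labels number no replicates.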
